A study of Saccharomyces cerevisiae with 24 samples.

Results

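The sip2 gal83 double deletion strain of Saccharomyces cerevisiae, in which Sip1 is the only β-subunit of the Snf1 kinase that is still encoded, was compared with the reference strain. The members were chosen by title: the 3 arrays of the sip2 gal83 strain and the 3 arrays of the reference strain, together 6 of the 24 arrays in the series. The study measured 8 strains, with every combination of deletions of the β-subunit genes SIP1, SIP2 and GAL83, on Affymetrix yeast expression arrays with 3 biological replicates each. The sip2 gal83 strain carries sip2Δ gal83Δ and keeps SIP1. For comparison, the gal83 strain carries gal83Δ alone, the sip2 strain carries sip2Δ alone and the sip1 sip2 gal83 strain lacks all of the β-subunits. The reference strain carries none of these deletions, and the labels say no more about the strain background or about how many clones stand behind a genotype. All strains were grown aerobically at 30 °C and pH 5.0 in a 1 L bioreactor on medium with 10 g/L glucose at a dilution rate of 0.1 per h, and total RNA came from frozen steady-state cell pellets.

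Snf1 is the yeast AMP-activated protein kinase. It is a complex of the catalytic subunit Snf1, the regulatory subunit Snf4 and a single β-subunit, Sip1, Sip2 or Gal83, which holds the complex together and directs it to the vacuole, the cytoplasm or the nucleus. Cells without Snf1 grow poorly when glucose is replaced by other carbon sources. The kinase inactivates the repressor Mig1 and activates Cat8, Sip4 and Adr1, the factors that switch on gluconeogenesis, the glyoxylate cycle and the use of acetate, ethanol and lactate.

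The deposited values are log2 intensities, so a change of 1 is a doubling, and every change given here is a log2 difference with its standard error (SE) from a linear model in limma. Each value is 1 array from 1 culture. The array measures RNA of the whole culture, in which fewer cells of a state and less RNA per cell cannot be told apart. A gene is said to have risen or fallen where its Benjamini-Hochberg adjusted p over all 5449 genes was under 0.05 in the fit that shares 1 estimate of spread per gene over all 24 arrays. Because the sip2 gal83 arrays spread more than those of other strains, a fit to these 6 arrays alone, called the 6-array fit, was run as well. Where a named gene passed over all arrays but not in the 6-array fit, this is given beside its value or with its list's counts. Some genes outside the lists that are printed without an adjusted p, such as SLZ1, are not marked in this way.

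In the sip2 gal83 and reference arrays, the readings of the deleted genes matched the labels. SIP2 read 2.03, 2.02 and 2.03 in the sip2 gal83 arrays, against 10.57, 10.64 and 10.73 in the reference arrays. GAL83 read 2.08, 2.08 and 2.09 in the sip2 gal83 arrays, against 11.27, 11.26 and 11.33 in the reference arrays. Both are at the low end of the scale in the deletion strain. The remaining subunit gene SIP1 read 9.76, 10.57 and 10.50 in the sip2 gal83 arrays, against 10.85, 10.81 and 11.12 in the reference arrays, so that the groups did not overlap. Its change was -0.65 ± 0.14 (SE; adjusted p = 0.0021, adjusted p = 0.158 in the 6-array fit), and without replicate 1 of the sip2 gal83 strain it was -0.39.

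Replicate 1 of the sip2 gal83 strain stood apart from the other two. It correlated at 0.988 and 0.9881 with them across genes, while these correlated at 0.9976 with each other, and its weight in a fit with array weights was 0.07. Replicate 1 was higher than the mean of replicates 2 and 3 by 1 or more in 62 genes and lower in 111, while replicates 2 and 3 differed from each other by that much in 27. The median standard deviation of a gene over the 3 arrays was 0.152 in the sip2 gal83 strain, against 0.059 to 0.085 in the other strains. The gap of replicate 1 ran with gene length: its median was 0.14 in the quintile of genes with the shortest coding length, 51 to 660 bases, and -0.22 in the quintile with the longest, 2109 to 14733 bases. Against the reference mean, the medians of the shortest and the longest quintile were 0.157 and -0.336 in replicate 1, against 0.004 and -0.118 in replicate 2 and 0.006 and -0.096 in replicate 3. The part of gene length and of replicate 1 in a given gene's change was not tested. List counts against the reference are given without replicate 1 as well, while those of the other comparisons are given with it only.

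**Figure D1:**
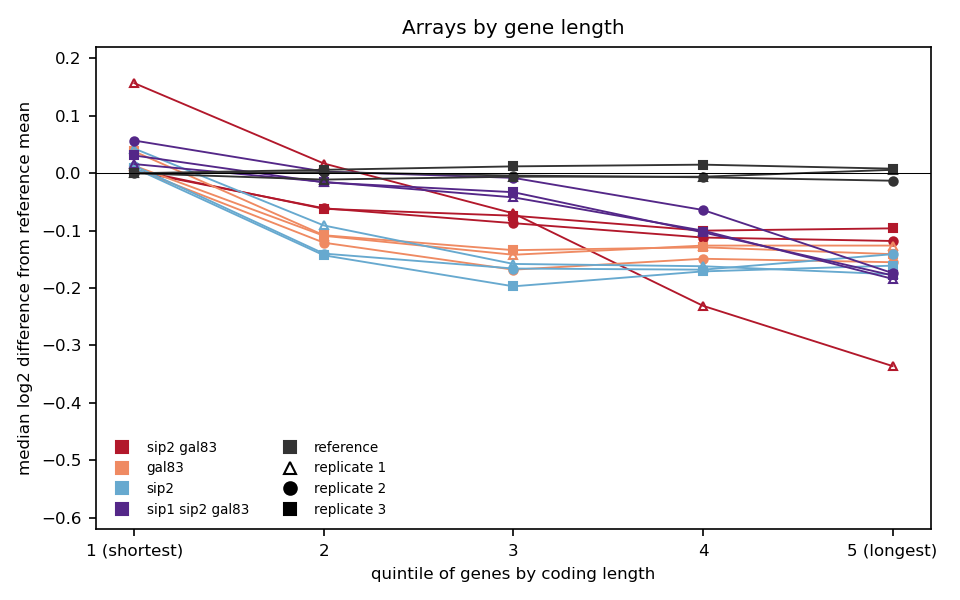
Median log2 difference of each array from the mean of the reference arrays, in quintiles of genes ordered by coding length (horizontal axis), for the sip2 gal83, gal83, sip2, sip1 sip2 gal83 and reference strains, with 1 line per array. Replicate 1 of the sip2 gal83 strain (open red triangles) runs from 0.157 in the shortest quintile to -0.336 in the longest, a wider span than that of any other array drawn.

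Against the reference, 2031 of 5449 genes passed the test, 37.3% of those tested. Of these, 590 were higher (10.8%) and 1441 lower (26.4%) in the sip2 gal83 strain. Most changes were small: 142 of the called genes were higher and 508 lower by at least 0.5, and 30 were higher and 152 lower by at least 1. The 3 sip2 gal83 arrays lay all above or all below the 3 reference arrays in 2510 genes, 46.1% of all genes, all above in 908 (16.7%) and all below in 1602 (29.4%). In the 6-array fit 528 genes were called (9.69%), of which 140 were higher (2.57%) and 388 lower (7.12%), and 510 of them were called in the same direction in the fit over all arrays. Without replicate 1 of the sip2 gal83 strain 1564 were called (28.7%), 417 higher (7.65%) and 1147 lower (21.0%), 1362 of them in the same direction as with it. The list counts below are to be read beside these shares.

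The direction of small changes depends on the scaling. The median change of all genes was -0.069 in the deposited values and 0.01 after each array was centred on its median. Higher genes made up 29.0% of the calls in the deposited values, 54.7% after centring (1185 higher and 980 lower) and 54.3% after quantile normalization (1034 higher and 870 lower). Changes of about 0.1 or less therefore have no settled direction, and a larger change of 1 named gene turned. GAL1, the galactokinase gene, with 4.95 to 5.39 in the sip2 gal83 arrays and 5.77 to 6.05 in the reference arrays, changed by -0.67 in the deposited values (adjusted p = 0.000859, adjusted p = 0.0579 in the 6-array fit) and by 0.09 after quantile normalization, where it did not pass. Of the 1904 genes called after quantile normalization 2 were called in opposite directions between the deposited and the quantile-normalized values and 0 between the deposited and the centred values.

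Genes of gluconeogenesis and the glyoxylate cycle were among those with the largest falls. All 4 gluconeogenic genes examined fell, with a median change of -2.31, beside -0.069 over all genes, and all 4 passed in the 6-array fit and without replicate 1. FBP1, encoding fructose bisphosphatase, read 8.93, 8.55 and 8.27 in the sip2 gal83 arrays, against 11.89, 12.10 and 12.33 in the reference arrays. Its change was -3.53 ± 0.46 (adjusted p = 6.58e-05, adjusted p = 0.00335 in the 6-array fit). PCK1, encoding phosphoenolpyruvate carboxykinase, read 7.66, 8.42 and 8.38 in the sip2 gal83 arrays, against 11.08, 11.17 and 11.27 in the reference arrays. Its change was -3.02 ± 0.39 (adjusted p = 5.89e-05, adjusted p = 0.0062 in the 6-array fit). For both enzymes, which are dispensable for growth on glucose, the groups lay more than 2 units apart.

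The other two gluconeogenic genes fell by less. SFC1, the mitochondrial succinate-fumarate carrier, read 12.03, 11.86 and 11.77 in the sip2 gal83 arrays, against 13.42, 13.51 and 13.53 in the reference arrays, a change of -1.60 ± 0.15 (adjusted p = 3.03e-06, adjusted p = 0.0025 in the 6-array fit). MDH2, the cytosolic malate dehydrogenase, read 12.78, 13.16 and 13.24 in the sip2 gal83 arrays, against 13.84, 13.92 and 13.94 in the reference arrays, a change of -0.84 ± 0.14 (adjusted p = 0.000469, adjusted p = 0.0293 in the 6-array fit). Neither pair of groups overlapped.

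Of 6 genes of the glyoxylate cycle, which makes four-carbon acids from acetyl units, 3 fell and 3 did not pass, with and without replicate 1. MLS1, malate synthase, read 8.41, 8.19 and 9.32 in the sip2 gal83 arrays, against 13.02, 13.02 and 12.91 in the reference arrays. Its change of -4.34 ± 0.55 (adjusted p = 5.89e-05, adjusted p = 0.00569 in the 6-array fit) was the largest among the called genes with both group means at 7 or more. ICL1, isocitrate lyase, read 9.33, 9.40 and 9.79 in the sip2 gal83 arrays, against 12.91, 12.91 and 12.94 in the reference arrays, a change of -3.41 ± 0.45 (adjusted p = 7.12e-05, adjusted p = 0.00163 in the 6-array fit). IDP2, the cytosolic isocitrate dehydrogenase that supplies NADPH, had a smaller change of -0.76 ± 0.11 (adjusted p = 0.000158, adjusted p = 0.00933 in the 6-array fit), with 12.75 to 12.97 in the sip2 gal83 arrays and 13.61 to 13.69 in the reference arrays. The members that did not pass were ICL2, a mitochondrial methylisocitrate lyase, at -0.17 (adjusted p = 0.315), the peroxisomal citrate synthase CIT2 at 0.07 (adjusted p = 0.354) and the peroxisomal malate dehydrogenase MDH3 at 0.07 (adjusted p = 0.545). The sign of CIT2 and of MDH3 turned under some settings.

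All 5 genes of the carnitine shuttle, which carries acetyl units into mitochondria, fell, with a median change of -0.94, and 4 of them passed in the 6-array fit. All 5 also passed without replicate 1. The carnitine acetyltransferase YAT1 read 11.13, 11.80 and 11.58 in the sip2 gal83 arrays, against 13.18, 13.02 and 13.20 in the reference arrays, a change of -1.63 ± 0.18 (adjusted p = 1.31e-05, adjusted p = 0.0154 in the 6-array fit). Its relative YAT2 read 11.35, 11.47 and 11.55 in the sip2 gal83 arrays, against 12.81, 12.75 and 12.91 in the reference arrays, a change of -1.37 ± 0.10 (adjusted p = 1.7e-07, adjusted p = 0.00268 in the 6-array fit). The carnitine carrier CRC1 changed by -0.77 and the acetyltransferase CAT2 by -0.42, both passing in both fits. The size of the fall of the plasma membrane transporter AGP2 depended on replicate 1: it read 8.32, 9.76 and 9.73 in the sip2 gal83 arrays, against 10.03, 10.14 and 10.46 in the reference arrays (-0.94, adjusted p = 0.0109, adjusted p = 0.219 in the 6-array fit), and without replicate 1 its change was -0.46 (adjusted p = 0.0298).

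Of 12 genes for the uptake and use of acetate, ethanol and lactate, 7 fell and none rose, with a median change of -0.16, and 2 passed in the 6-array fit. Those 2 were ADY2 and CYB2. ADY2, the acetate transporter, read 11.92, 12.26 and 11.74 in the sip2 gal83 arrays, against 13.40, 13.39 and 13.78 in the reference arrays, a change of -1.55 ± 0.39 (adjusted p = 0.00589, adjusted p = 0.016 in the 6-array fit). CYB2, the lactate dehydrogenase of the intermembrane space, read 13.30, 13.39 and 13.78 in the sip2 gal83 arrays, against 14.15, 14.12 and 14.18 in the reference arrays, a change of -0.66 ± 0.11 (adjusted p = 0.000352, adjusted p = 0.045 in the 6-array fit). The other 5 falls, of ATO3, DLD1, ACS1, JEN1 and ACS2, were between -0.57 and -0.12 and did not pass in the 6-array fit. Without replicate 1 the list held 4 falls in the fit over all arrays, and after median centring it held 4 falls and 2 rises. The glucose-repressed alcohol dehydrogenase ADH2 (-0.08, adjusted p = 0.159) and the acetaldehyde dehydrogenases ALD4 (0.03) and ALD6 (0.03) did not pass.

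**Figure D2:**
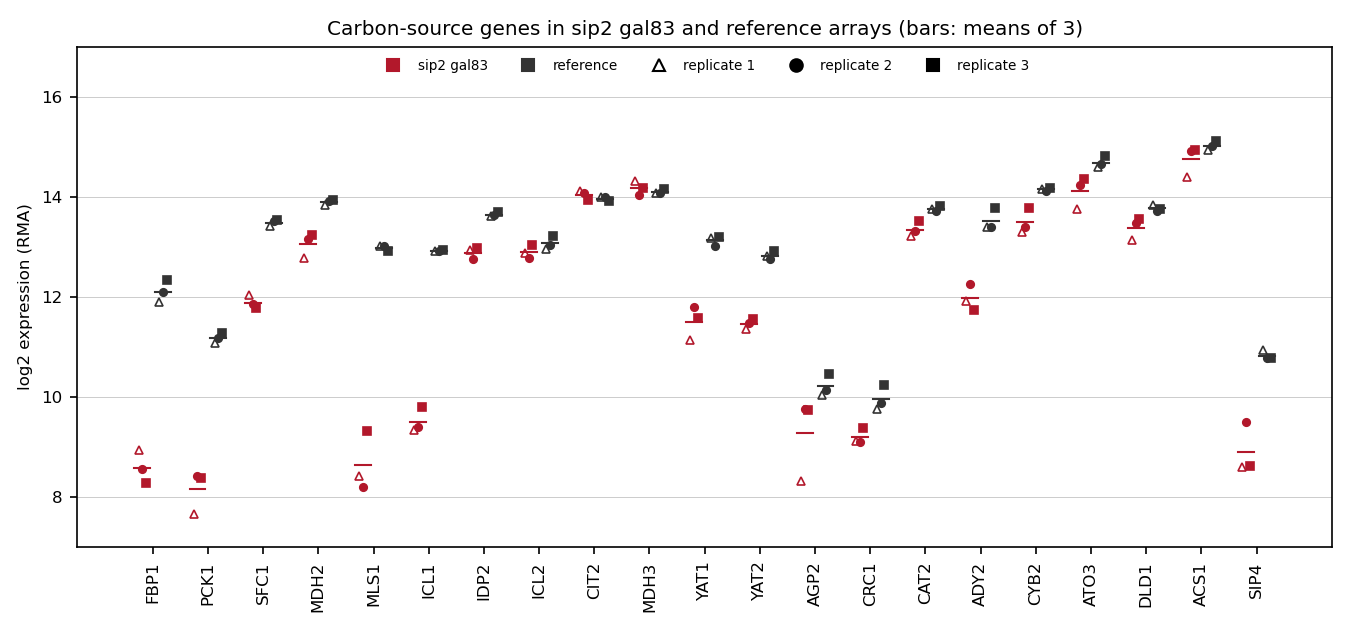
Log2 expression (vertical axis) of genes of gluconeogenesis, the glyoxylate cycle, the carnitine shuttle and acetate and lactate use, with the activator SIP4, in the 3 sip2 gal83 arrays (red, left) and the 3 reference arrays (dark grey, right), with bars for the means. MLS1, ICL1, FBP1 and PCK1 lie between 7.66 and 9.79 in the sip2 gal83 arrays and between 11.08 and 13.02 in the reference arrays, while CIT2 and MDH3 overlap.

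Among 13 activators of genes for non-fermentable carbon sources, 5 fell, none rose and 8 did not pass, with and without replicate 1. Over all genes 26.4% fell and 10.8% rose. SIP4, a zinc-cluster activator that binds the carbon source response element, read 8.59, 9.49 and 8.62 in the sip2 gal83 arrays, against 10.93, 10.77 and 10.77 in the reference arrays, a change of -1.92 ± 0.28 (adjusted p = 0.000142, adjusted p = 0.0222 in the 6-array fit). CAT8, the activator upstream of SIP4, read 11.30, 11.41 and 11.41 in the sip2 gal83 arrays, against 11.37, 11.45 and 11.37 in the reference arrays (-0.02, adjusted p = 0.788). ADR1, the activator of ADH2 and of fatty acid use, read 11.81, 12.28 and 12.63 in the sip2 gal83 arrays, against 11.95, 12.05 and 12.31 in the reference arrays (0.13, adjusted p = 0.547). The arrays of the groups overlapped for both. The remaining falls were those of HAP5 (-0.83), RDS2 (-0.66), ERT1 (-0.49) and HAP2 (-0.41), the first and last of them subunits of the Hap complex that drives respiratory genes. ERT1 (adjusted p = 0.11) and HAP2 (adjusted p = 0.0642) did not pass in the 6-array fit. HAP4, the regulated subunit of that complex, did not pass (-0.05, adjusted p = 0.551).

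Of 13 genes of the Snf1 complex and its regulators, 1 rose and 7 fell, among them the deleted SIP2 and GAL83. Without replicate 1 there were 1 rise and 8 falls. In the 6-array fit 4 falls passed, those of SIP2, GAL83, REG2 and STD1, and no rise. SNF1 itself read 12.13, 12.41 and 12.39 in the sip2 gal83 arrays, against 12.56, 12.72 and 12.74 in the reference arrays (-0.36, adjusted p = 0.000911). SNF4 did not pass (-0.13, adjusted p = 0.274), while without replicate 1 it did (-0.24, adjusted p = 0.0346). Of the kinases that activate Snf1, SAK1 fell (-0.41, adjusted p = 0.00673), TOS3 rose (0.49, adjusted p = 0.00954) and ELM1 did not pass. REG2, a regulatory subunit of the phosphatase Glc7, read 9.79, 9.71 and 9.92 in the sip2 gal83 arrays, against 10.86, 11.09 and 11.45 in the reference arrays, a change of -1.32 (adjusted p = 8.4e-05). STD1, a regulator of glucose signalling, changed by -0.82 (adjusted p = 0.00589).

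Of 8 glucose repressors and corepressors, 4 fell and 1 rose, and without replicate 1 there were 3 falls and 1 rise. MIG3, a relative of MIG1, was at the low end of the scale, with 2.38 in each of the sip2 gal83 arrays and 4.51 to 4.57 in the reference arrays. MIG1 (-0.36), TUP1 (-0.49) and CYC8 (-0.63) fell, and for all of them replicate 1 was the lowest sip2 gal83 array. Without it MIG1 did not pass (-0.20, adjusted p = 0.0822), while TUP1 changed by -0.18 (adjusted p = 0.00353) and CYC8 by -0.33 (adjusted p = 0.00942). NRG2, a repressor that binds Snf1, read 13.72, 13.32 and 13.14 in the sip2 gal83 arrays, against 12.91, 12.86 and 12.76 in the reference arrays, a rise of 0.55 (adjusted p = 0.00244). In the 6-array fit the fall of MIG3 passed and no other change of the list did.

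Glucose transporters and disaccharide genes moved in both directions. Of 19 genes of hexose transport, sensing and phosphorylation, 3 rose and 4 fell, near the shares over all genes, while after median centring 10 rose and 3 fell. Without replicate 1 there were 4 rises and 4 falls, and in the 6-array fit 2 falls, those of HXT3 and HXT4. HXT4, a transporter of high affinity, read 10.24, 10.40 and 10.15 in the sip2 gal83 arrays, against 11.74, 11.63 and 11.35 in the reference arrays, a change of -1.31 (adjusted p = 6.12e-05). HXT3, of low affinity, changed by -0.73 (adjusted p = 0.00376), and HXT7, whose probe set is shared with a near-identical gene, rose by 0.30 (adjusted p = 0.00295, adjusted p = 0.0981 in the 6-array fit). Of 10 disaccharide genes 3 rose and 3 fell, and without replicate 1 there were 2 of each. IMA5, an isomaltase, read 8.10, 7.65 and 8.38 in the sip2 gal83 arrays, against 10.10, 10.60 and 10.84 in the reference arrays, a change of -2.47 ± 0.27 (adjusted p = 1.32e-05, adjusted p = 0.0143 in the 6-array fit). SUC2, the invertase gene repressed through Mig1, read 13.35, 13.68 and 13.70 in the sip2 gal83 arrays, against 13.01, 13.07 and 13.22 in the reference arrays, a rise of 0.48 (adjusted p = 0.0204, adjusted p = 0.068 in the 6-array fit).

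Most genes of the storage carbohydrates fell. Of 15 glycogen genes 11 fell and 1 rose, with a median change of -0.46, and all 7 trehalose genes fell, with a median of -0.45. The fit without replicate 1 held 10 falls and 1 rise for glycogen and 5 falls for trehalose, and the 6-array fit 4 falls with 1 rise and 2 falls. In the longest quintile of coding length lay 6 of the 7 trehalose genes and 6 of the 15 glycogen genes. All genes of that quintile had a median change of -0.188, and -0.105 without replicate 1. The trehalose median against the reference mean was -0.63, -0.33 and -0.26 in the sip2 gal83 arrays. The part of gene length in these falls was not tested. GSY2, the main glycogen synthase, read 11.42, 11.84 and 11.82 in the sip2 gal83 arrays, against 12.15, 12.26 and 12.32 in the reference arrays (-0.55, adjusted p = 0.000341, adjusted p = 0.0637 in the 6-array fit). TPS1, trehalose phosphate synthase, read 13.46, 13.75 and 13.68 in the sip2 gal83 arrays, against 14.06, 14.10 and 14.12 in the reference arrays (-0.46, adjusted p = 8.79e-05, adjusted p = 0.0386 in the 6-array fit). GAC1, which targets the phosphatase Glc7 to glycogen synthase, had the largest change of the list, and its size depended on replicate 1: it read 5.88, 9.38 and 9.12 in the sip2 gal83 arrays, against 10.04, 10.35 and 10.57 in the reference arrays. Its change was -2.20 (adjusted p = 0.00719, adjusted p = 0.214 in the 6-array fit), and -1.08 without replicate 1 (adjusted p = 0.00252). The one rise was that of PGM1, the minor phosphoglucomutase (0.34, adjusted p = 0.000181).

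Genes of cell wall mannoproteins had the highest median change of the 37 gene lists. Of 21 genes of the PAU, DAN, TIR and CWP families 14 rose and none fell, with a median change of 1.09, beside 10.8% of all genes that rose. The median of the list relative to the reference mean was 0.91, 1.00 and 1.17 in the sip2 gal83 arrays, against 0.01, -0.01 and 0.02 in the reference arrays. Without replicate 1 there were 15 rises, and in the 6-array fit 11. CWP1, a mannoprotein linked to the wall, read 12.36, 12.37 and 12.52 in the sip2 gal83 arrays, against 11.18, 11.09 and 11.39 in the reference arrays, a change of 1.20 ± 0.11 (adjusted p = 3.15e-06, adjusted p = 0.00635 in the 6-array fit). PAU5, a seripauperin, read 13.66, 13.49 and 13.65 in the sip2 gal83 arrays, against 12.31, 12.27 and 12.23 in the reference arrays, a change of 1.33 ± 0.14 (adjusted p = 8.1e-06, adjusted p = 0.00233 in the 6-array fit). The groups did not overlap for these genes, which the rule for naming the largest changes required.

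Of the 14 rises, 9 come from probe sets that the array shares between near-identical PAU genes, and the signal cannot be assigned to a single one of them. The highest of these were PAU14, with 9.36, 10.18 and 9.34 in the sip2 gal83 arrays against 7.37, 7.39 and 7.42 in the reference arrays (2.24, adjusted p = 3.6e-05), and PAU18 (2.03, adjusted p = 0.00069). The 5 rises from probe sets of 1 gene were those of CWP1, PAU5, DAN1 (1.68), TIR1 (1.09) and TIR3 (0.61), the last of which did not pass in the 6-array fit (adjusted p = 0.0571). TIR4, CWP2 and PAU17 were among the members that did not pass. The PAU, DAN and TIR genes are known for induction when oxygen is scarce.

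Rises among sterol genes were smaller. Of 30 genes of ergosterol synthesis and its regulation 13 rose and 3 fell, with a median change of 0.17, and in the 6-array fit 9 rose and 0 fell. Without replicate 1, 17 rose and 4 fell. UPC2, the sterol-sensing activator that also drives anaerobic genes, read 11.33, 11.31 and 11.39 in the sip2 gal83 arrays, against 10.69, 10.46 and 10.46 in the reference arrays, a change of 0.81 (adjusted p = 0.00192). ERG28, a scaffold of the sterol demethylation enzymes, read 14.13, 14.05 and 13.97 in the sip2 gal83 arrays, against 13.62, 13.59 and 13.53 in the reference arrays, a change of 0.47 (adjusted p = 6.12e-05). ERG27 (0.43) and ERG29 (0.53) rose with adjusted p = 6.57e-05 for each. The falls were those of the reductases HMG1 (-0.25) and HMG2 (-0.57) and of ECM22 (-0.56, and -0.33 without replicate 1), a relative of UPC2.

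Single genes with large rises outside these families included YSR3 and ATF2. YSR3, a dihydrosphingosine phosphate phosphatase, read 10.68, 10.85 and 10.26 in the sip2 gal83 arrays, against 8.67, 8.73 and 8.89 in the reference arrays, a change of 1.84 ± 0.28 (adjusted p = 0.000203, adjusted p = 0.00896 in the 6-array fit). ATF2, an alcohol acetyltransferase that also acetylates sterols, read 11.75, 11.96 and 11.88 in the sip2 gal83 arrays, against 10.44, 10.10 and 9.98 in the reference arrays, a change of 1.69 ± 0.35 (adjusted p = 0.00176, adjusted p = 0.00667 in the 6-array fit). For both the groups lay more than 1 unit apart, where the rule for naming them required only that they did not overlap. Others among the largest rises were QDR2, a multidrug transporter (1.42), DIA1 (1.23), YPS3, a yapsin protease (1.22), and SFG1, a regulator of filamentous growth (1.18). Among the largest falls outside carbon metabolism were the aquaporin AQY2 (-2.01), the cysteine transporter YCT1 (-1.86) and FMP48 (-1.79), each passing in the 6-array fit. PRM7 (-2.62, adjusted p = 0.0782 in the 6-array fit) and the flocculin FLO11 (-1.87, adjusted p = 0.107 in the 6-array fit) did not pass there, and FLO11 also lost its call without replicate 1 (-1.35, adjusted p = 0.189).

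Some genes were near the low end of the scale in a group. SLZ1 read 7.69, 7.11 and 1.95 in the sip2 gal83 arrays, against 1.92 to 1.93 in the reference arrays, so that the last of the 3 arrays was at the reference level. WSC4, a stress sensor family member, read 2.68 to 3.34 in the sip2 gal83 arrays and 6.30 to 7.36 in the reference arrays.

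Ribosomal protein genes of the cytosol changed by small amounts, with a median change of 0.13. Of 127 genes 75 rose and 1 fell, beside 10.8% and 26.4% of all genes. Probe sets shared between genes gave 16 of these 76 calls. The list median was 0.18, 0.11 and 0.11 in the sip2 gal83 arrays, against 0.02, 0.01 and -0.04 in the reference arrays. Without replicate 1, 53 rose and 2 fell, and in the 6-array fit 21 rose and 0 fell. These genes are short, with a median coding length of 771 bases and 43 of them in the shortest quintile. Within that quintile their median change was 0.14, and 0.11 without replicate 1, beside 0.04 and 0.00 for the other genes of the quintile. The largest rises were those of RPS19A (0.53), RPL26B (0.52), RPL11A (0.50) and RPL39 (0.47), of which RPL26B did not pass in the 6-array fit (adjusted p = 0.0749).

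Among 36 subunit genes of the electron transport chain and its ATP synthase, 9 passed as higher and 5 as lower, beside 10.8% and 26.4% of all genes. Without replicate 1 these were 6 and 5, while after median centring they were 16 and 2. In the 6-array fit 1 passed as higher and 0 as lower. Of the 36 genes 26 were in the shortest quintile of coding length. Within it their median change was 0.09, and 0.06 without replicate 1, beside 0.04 and 0.0 for its other genes. In the tricarboxylic acid cycle 11 of 17 genes fell and none rose, with a median change of -0.16, and without replicate 1 also 11. The largest were KGD1 (-0.52, and -0.33 without replicate 1) and KGD2 (-0.44), subunits of the oxoglutarate dehydrogenase, and SDH1 (-0.42), the flavoprotein of succinate dehydrogenase. In the 6-array fit 2 passed, KGD2 (adjusted p = 0.0368) and SDH3 (adjusted p = 0.0296). Median centring left 8 falls. Among 33 glycolytic and pentose phosphate genes 14 fell and 1 rose, led by PDC6 (-1.29), a minor pyruvate decarboxylase, SOL4 (-0.96), a phosphogluconolactonase, and RKI1 (-0.75), ribose phosphate ketol-isomerase, and after centring 8 fell and 2 rose. Without replicate 1, 9 fell and 1 rose, and in the 6-array fit 6 fell.

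Of 31 genes of nitrogen source use 17 fell and 1 rose, with a median change of -0.30, and 9 falls passed in the 6-array fit. Without replicate 1 there were again 17 falls and 1 rise. DAL2, allantoicase, read 8.97, 8.95 and 9.39 in the sip2 gal83 arrays, against 10.80, 10.93 and 10.86 in the reference arrays, a change of -1.76 ± 0.18 (adjusted p = 7.25e-06, adjusted p = 0.0062 in the 6-array fit). MEP2, the ammonium permease and sensor, read 12.62, 12.80 and 13.01 in the sip2 gal83 arrays, against 13.75, 13.94 and 13.63 in the reference arrays (-0.96, adjusted p = 0.000141, adjusted p = 0.0221 in the 6-array fit). GDH2, the glutamate dehydrogenase that releases ammonium, fell by 0.58, with 13.20 to 13.30 in the sip2 gal83 arrays and 13.81 to 13.89 in the reference arrays. The rise was that of the amino acid permease AGP1 (0.63, adjusted p = 0.00253, adjusted p = 0.0606 in the 6-array fit).

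Of 21 genes for thiamine, pyridoxine and biotin 12 fell and none rose, with a median change of -0.41, and 8 passed in the 6-array fit. Without replicate 1, 10 fell. BIO3, of biotin synthesis, read 9.63, 9.64 and 9.59 in the sip2 gal83 arrays, against 11.13, 10.53 and 10.40 in the reference arrays (-1.07, adjusted p = 0.000302). BIO5, a transporter of biotin precursors, varied within the strain, with 4.59, 5.39 and 7.30 in the sip2 gal83 arrays, against 9.65, 8.50 and 8.93 in the reference arrays (-3.26, adjusted p = 0.000732, adjusted p = 0.0631 in the 6-array fit). THI4, of thiamine synthesis, changed by -0.63, and by -0.57 without replicate 1 (adjusted p = 0.0779), and SNZ1, of pyridoxine synthesis, by -0.51.

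Of 25 stress genes under Msn2 and Msn4, 9 fell and none rose, beside 26.4% and 10.8% of all genes. Their median change was -0.14, beside -0.069 over all genes. Without replicate 1 there were again 9 falls, and in the 6-array fit 4. The cytosolic catalase CTT1 read 10.53, 10.46 and 10.66 in the sip2 gal83 arrays, against 12.34, 12.38 and 12.11 in the reference arrays, a change of -1.73 ± 0.19 (adjusted p = 1.62e-05, adjusted p = 0.00322 in the 6-array fit). The phosphatase SDP1 changed by -0.96 and the secreted glycoprotein YGP1 by -0.76. The chaperone genes HSP12 (-0.03), HSP26 (0.06) and HSP104 (0.04) did not pass.

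**Figure D3:**
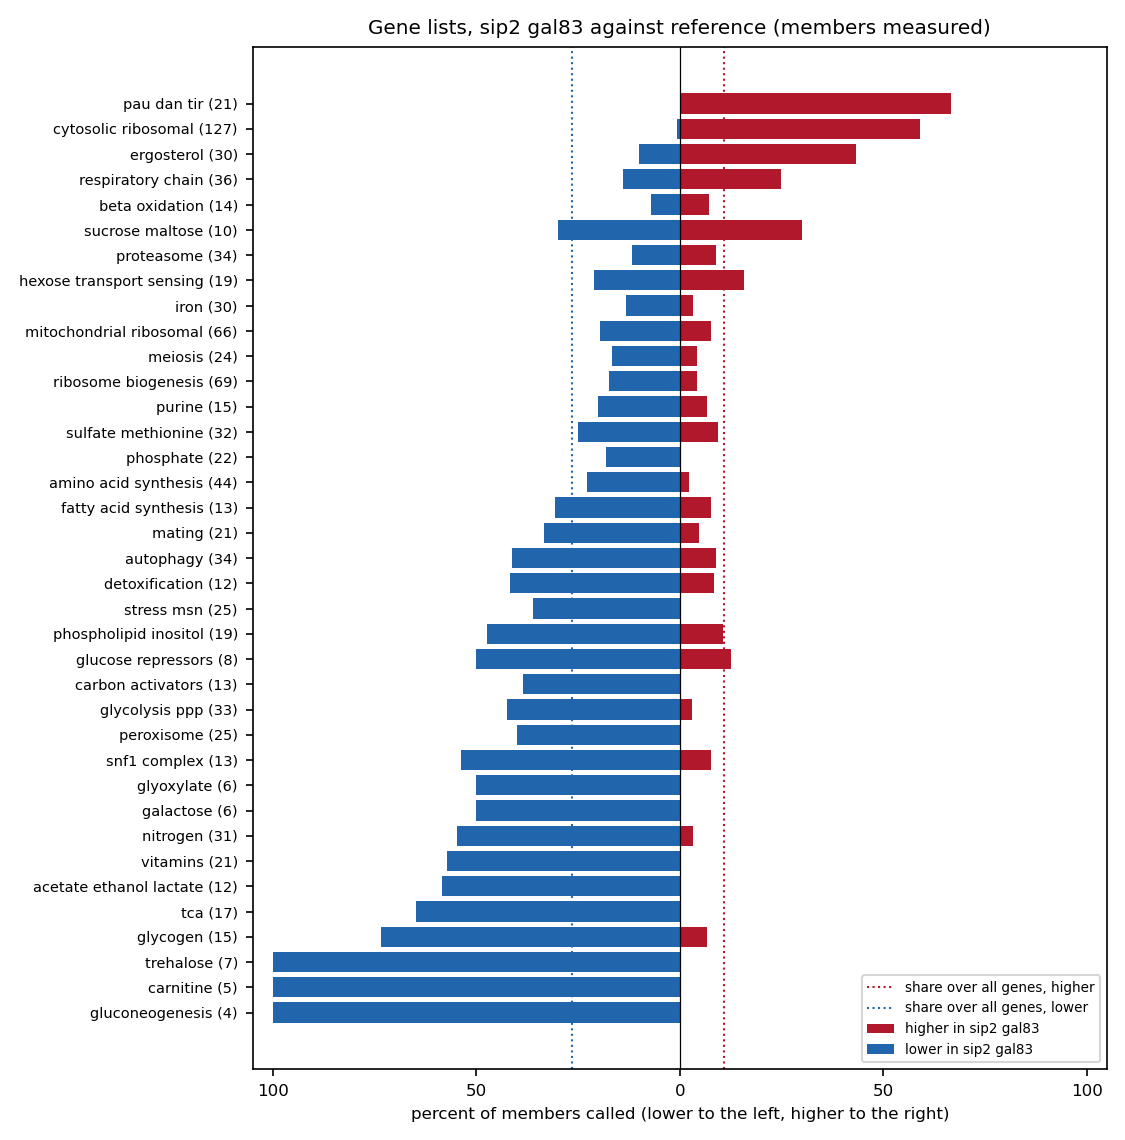
Percent of the measured members of each gene list that were called lower (blue, to the left) or higher (red, to the right) in the sip2 gal83 strain against the reference, with the number of members in brackets. Dotted lines mark the shares over all genes, 26.4% lower and 10.8% higher. All gluconeogenesis, carnitine and trehalose genes lie to the left, and the mannoprotein, cytosolic ribosomal and ergosterol lists extend past the red line.

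The remaining lists were counted in the same way. Of 34 autophagy genes 14 fell and 3 rose, with a median of -0.26, and 6 falls passed in the 6-array fit, ATG29 (-1.97) the largest of these. Without replicate 1, 12 fell and 2 rose. Of 25 peroxisome biogenesis genes 10 fell, led by PEX18 (-1.40), and without replicate 1, 8 fell, while of 14 genes of fatty acid β-oxidation 1 fell, the thiolase POT1 (-0.73), and 1 rose, and without replicate 1, 2 fell. Of 19 phospholipid and inositol genes 9 fell and 2 rose, with PIS1, phosphatidylinositol synthase, at 0.74 and the activator INO2 at -1.40, and PIS1 alone passed in the 6-array fit. Without replicate 1, 6 fell and 2 rose, and INO2 changed by -0.92. Of 24 meiotic genes 4 fell and 1 rose with and without replicate 1, among the falls the inducer IME1 (-1.38, adjusted p = 8.4e-05). Of 21 mating genes 7 fell and 1 rose with and without replicate 1, among them the pheromone receptor STE2 (-1.82). The agglutinin subunit AGA2 was near the low end of the scale, with 2.15, 3.71 and 2.89 in the sip2 gal83 arrays and 5.14, 5.44 and 6.75 in the reference arrays. Of 30 iron genes 4 fell and 1 rose, and without replicate 1 there were 1 fall and 1 rise. The largest change of that list was the fall of FRE4 (-4.15, adjusted p = 0.0215 in the 6-array fit, and -4.23 without replicate 1).

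Iron genes were uneven among replicates of the reference and gal83 strains. The siderophore transporter SIT1 read 11.73, 11.97 and 12.05 in the sip2 gal83 arrays, 11.22, 7.85 and 7.30 in the gal83 arrays, 9.14, 9.36 and 7.41 in the sip2 arrays and 9.65, 11.67 and 11.72 in the reference arrays. Replicate 1 was the low array of the reference strain and the high array of the gal83 strain. The list median relative to the reference mean was -0.09, 0.12 and 0.22 in the sip2 gal83 arrays, against -0.31, 0.11 and 0.19 in the reference arrays.

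The comparison with the gal83 strain asks what the loss of SIP2 adds when GAL83 is already gone. Between these strains 1637 genes differed (30.0%), of which 970 were higher (17.8%) and 667 lower (12.2%) in the sip2 gal83 strain, and 223 differed in a fit to these 6 arrays alone (4.09%). Higher genes made up 59.3% of the calls, and 47.7% after median centring (748 higher and 819 lower). FBP1 read 8.93, 8.55 and 8.27 in the sip2 gal83 arrays, against 8.02, 8.83 and 8.93 in the gal83 arrays, and the groups overlapped (difference -0.01 ± 0.46, adjusted p = 1.0). PCK1 (-0.33 ± 0.39), MDH2 (-0.05 ± 0.14) and IDP2 (-0.05 ± 0.11) did not pass either. MLS1 read 8.41, 8.19 and 9.32 in the sip2 gal83 arrays, against 9.25, 9.66 and 9.98 in the gal83 arrays (-0.99 ± 0.55, adjusted p = 0.19), and ICL1 differed by -0.91 ± 0.45 (adjusted p = 0.139). SFC1 was lower in the sip2 gal83 strain by a smaller amount (-0.45 ± 0.15, adjusted p = 0.0309, adjusted p = 0.0822 in the fit to the 2 strains alone).

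The carnitine genes were lower in the sip2 gal83 strain than in the gal83 strain in 4 of 5 cases, with a median of -0.67, and YAT2 alone of these passed in the fit to the 2 strains alone. YAT2 read 11.35, 11.47 and 11.55 in the sip2 gal83 arrays, against 12.06, 12.09 and 12.21 in the gal83 arrays, a difference of -0.67 ± 0.10 (adjusted p = 0.000149, adjusted p = 0.0186 in the fit to the 2 strains alone). SIP4 was lower (-1.01), with 8.59, 9.49 and 8.62 in the sip2 gal83 arrays, against 10.23, 9.78 and 9.72 in the gal83 arrays (adjusted p = 0.012, adjusted p = 0.124 in the fit to the 2 strains alone). IMA5 was lower as well (-1.77, adjusted p = 0.000168), with 9.65 to 10.02 in the gal83 arrays.

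Among the rises against the gal83 strain, YSR3 differed by 2.28 ± 0.28 (adjusted p = 2.56e-05), with 10.68, 10.85 and 10.26 in the sip2 gal83 arrays and 8.45, 8.35 and 8.16 in the gal83 arrays. CWP1 was higher by 1.44 and TIR1 by 1.35, while PAU5 was not (-0.35, adjusted p = 0.0627), with 13.49 to 13.66 in the sip2 gal83 arrays and 13.87 to 14.03 in the gal83 arrays. Over the mannoprotein list 3 genes were higher and 3 lower than in the gal83 strain. Of the ergosterol genes 11 were higher and 1 lower, among them ERG29 (0.62) and ERG4 (0.56, adjusted p = 0.0527 in the fit to the 2 strains alone). Of 30 iron genes 13 were higher and 1 lower, with a median of 0.46. For SIT1 the difference of 3.13 (adjusted p = 0.0108) did not pass in the fit to the 2 strains alone (adjusted p = 0.167), and the gal83 arrays ranged from 7.30 to 11.22.

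Against the sip2 strain, which asks what the loss of GAL83 adds, 2026 genes differed (37.2%), 1277 higher (23.4%) and 749 lower (13.7%), and 707 differed in a fit to these 6 arrays alone (13.0%). Higher genes made up 63.0% of the calls, 48.3% after median centring (961 higher and 1029 lower) and 52.2% after quantile normalization (1009 higher and 925 lower). All 4 gluconeogenic genes were lower, with a median of -2.39, 3 of 6 glyoxylate genes were lower and 1 higher, and all 5 carnitine genes were lower. FBP1 differed by -3.73, with 12.23 to 12.37 in the sip2 arrays, and MLS1 by -4.29, with 12.85 to 13.00. Of the mannoprotein genes 14 were higher and none lower, with a median of 1.15. UPC2 read 11.33, 11.31 and 11.39 in the sip2 gal83 arrays, against 9.81, 9.94 and 9.89 in the sip2 arrays, a difference of 1.46 (adjusted p = 6.16e-06), and YSR3 differed by 3.55. The comparisons with the gal83, sip2 and reference strains share the sip2 gal83 arrays, so their counts are not independent of each other.

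The sip1 sip2 gal83 strain lacks SIP1 as well, so the comparison with it asks what the remaining β-subunit gene changes. Between the sip2 gal83 strain and that strain 789 genes differed (14.5%), of which 269 were higher (4.94%) and 520 lower (9.54%) in the sip2 gal83 strain, and 232 differed in a fit to these 6 arrays alone (4.26%). Higher genes made up 34.1% of the calls, and 50.2% after quantile normalization (466 higher and 463 lower). Without replicate 2 of the triple strain 492 differed. FBP1, PCK1, SFC1 and MDH2 did not pass. MLS1 was higher in the sip2 gal83 strain by 1.78 ± 0.55, with 8.41, 8.19 and 9.32 in its arrays, against 7.16, 6.55 and 6.89 in the triple strain's arrays (adjusted p = 0.0387, adjusted p = 0.0613 in the fit to the 2 strains alone), and without replicate 1 of the sip2 gal83 strain it did not pass (adjusted p = 0.0552). YAT2 was higher by 0.94 ± 0.10 (adjusted p = 4.38e-06), with 10.45 to 10.57 in the triple strain, and IDP2 by 0.51 (adjusted p = 0.0048). SIP4 was lower (-1.51, adjusted p = 0.00142), with 10.10 to 10.70 in the triple strain, though not in the fit to the 2 strains alone (adjusted p = 0.0658).

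Of 24 meiotic genes 15 were lower in the sip2 gal83 strain than in the triple strain and none higher, with a median of -1.36, beside -0.014 over all genes. The same list had a median change of 0.01 against the reference. In 10 of the 24 genes all sip2 gal83 arrays and all reference arrays read below 3, at the low end of the scale, and 5 of the 15 lower genes are among these, so that the median is not a measured fold. IME2, the kinase that starts meiosis, read 6.46, 7.03 and 5.38 in the sip2 gal83 arrays, against 10.56, 10.11 and 9.60 in the triple strain's arrays (-3.80, adjusted p = 4.44e-07). The recombinase gene DMC1 read 7.64, 7.12 and 6.63 in the sip2 gal83 arrays, against 10.07, 10.02 and 9.17 in the triple strain's arrays (-2.62, adjusted p = 2.47e-06). The groups lay more than 1 unit apart for both genes. HXT4 (-2.28) and HXT3 (-1.36) were lower, with 12.40 to 12.68 in the triple strain for HXT4. IMA5 was higher (2.69), with 5.14 to 5.47 in the triple strain. UGA4, a permease for γ-aminobutyrate, was lower (-2.90), as was the arginase CAR1 (-1.78). Of 44 amino acid synthesis genes 19 were lower and none higher, with a median of -0.22, and of 32 sulfate and methionine genes 14 were lower and none higher, with a median of -0.18.

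**Figure D4:**
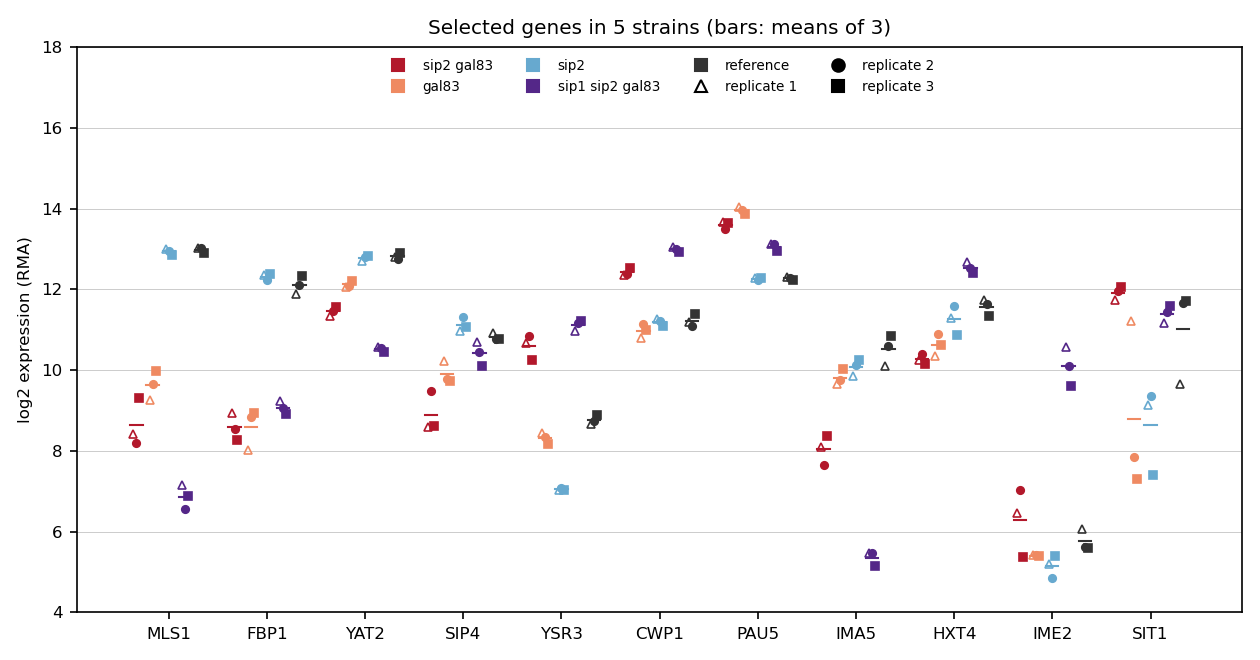
Log2 expression (vertical axis) of 11 genes in the 3 arrays of each of 5 strains, from left to right sip2 gal83, gal83, sip2, sip1 sip2 gal83 and reference, with bars for the means. For FBP1 the sip2 gal83, gal83 and sip1 sip2 gal83 arrays lie between 8.02 and 9.24 and the sip2 and reference arrays at 11.89 or above; for YSR3 and CWP1 the sip2 gal83 arrays lie between the sip1 sip2 gal83 arrays and those of the other 3 strains, while for SIT1 the gal83 and reference arrays are widely spread.

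The interaction of the deletions, the change in the sip2 gal83 strain minus the sum of the changes in the gal83 and sip2 strains, differed from 0 in 2602 genes (47.8%), positive in 1846 (33.9%) and negative in 756 (13.9%). The median over all genes was 0.128 in the deposited values and -0.048 after median centring, which gave 1216 positive and 1516 negative calls. Positive ones made up 70.9% of the calls in the deposited values, 44.5% after centring and 50.8% after quantile normalization (1203 positive and 1163 negative), so the signs of small interactions depend on the scaling. The array medians were 10.904 to 10.956 in the sip2 strain and 10.92 to 10.975 in the gal83 strain. They were 11.068 to 11.072 in the reference strain and 10.982 to 11.0 in the sip2 gal83 strain. The sip1 strain, which carries sip1Δ alone and is not part of the interaction, also had low medians, 10.945 to 10.981. The part of this shared level in the interactions was not tested. For FBP1 (-0.22 ± 0.65), PCK1 (-0.61 ± 0.55), MLS1 (-0.94 ± 0.78) and ICL1 (-1.13 ± 0.64) the interaction did not pass. For YAT2 (-0.61, adjusted p = 0.00173) and SIP4 (-1.30, adjusted p = 0.0117) the sip2 gal83 strain lay below the sum of the single changes. For YSR3 the interaction was 3.99 ± 0.40 (adjusted p = 6.35e-07): the sip2 gal83 arrays (10.26 to 10.85) lay above the reference arrays (8.67 to 8.89), while the gal83 arrays (8.16 to 8.45) and the sip2 arrays (7.04 to 7.07) lay below them. CWP1 (1.48, adjusted p = 1.75e-06) and ATF2 (2.87, adjusted p = 0.000159) also had positive interactions. Of 30 iron genes 25 had a positive interaction and 1 a negative one, and of 127 cytosolic ribosomal protein genes 13 a positive and 56 a negative one.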

How the data were processed

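Expression was measured in 24 cultures, 8 strains with 3 arrays each. The deposited values are log2 intensities of 5716 probe sets, ranging from 1.66 to 15.93, and per the submitters' processing notes they were made with RMA in the affy package. No version is given in the sources used here. RMA corrects background, normalizes between arrays and summarizes probes on the log2 scale, and whether all arrays were processed together is not stated, so no further normalization was applied. No file gives read depth, and the number of arrays limits the precision. Gene names came from the platform annotation, in which 5498 probe sets have 1 gene and 218 none, with 12 symbols updated from RefSeq's table (assembly R64), which also gave gene lengths. Where a gene had several probe sets, the brightest on average was kept, leaving 5449 genes, 112 of them with a probe set shared between genes.

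A limma model (version 3.58.1, R 4.3.3) was fitted to the 24 arrays with a mean for each strain (16 residual degrees of freedom), with moderated statistics and Benjamini-Hochberg adjustment over all genes at 0.05. In simulated data each gene had its mean over all arrays and 1 spread shared by all strains. There 76% of genes changed by 0.5 and 96% of those changed by 1 were recovered against the reference, with 11 false calls of 197. The simulation held neither the wider spread of the sip2 gal83 strain nor the shift of its replicate 1. It therefore cannot give the share of false calls in the real comparison. Alternatives were median centring, quantile normalization, a filter and a floor on the lowest 25% of genes, all probe sets, trended robust moderation, array weights, a replicate block, the compared strains alone, and arrays left out. Same-numbered sip2 gal83 and reference arrays deviated from their strain means with correlations of 0.038 to 0.272, so the numbers were not taken as pairs there, nor with the gal83 (-0.051 to 0.129) or sip2 strain (-0.046 to 0.125). With the sip1 sip2 gal83 strain they were 0.137 to 0.202, above 0.1 in every pair, and there the replicate block counts as a pairing. The values given for that comparison are from the fit without the block. With the block 799 genes differed, 750 of them called alike without it.

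Named genes were the 3 β-subunit genes, the 12 called genes each way with the largest change, a standard name, both means at 7 or more and groups that did not overlap, up to 4 each way below 7, 5 each way in the other comparisons, all members of 4 carbon lists, and up to 4 called members of each other list. In the comparisons with other strains, list members were named this way only for lists with at least 25% of members called. Further genes, such as CAT8, ADR1, SNF1 and the heat-shock genes, were chosen after their values were seen. The members, lists and rules were chosen with earlier results of these data known. The labels call the replicates biological and do not say how the cultures were separated.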

Additional observations from a re-analysis of the deposited data

Results flagged for a closer look

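The change in the sip2 gal83 strain differed from the sum of the changes in the gal83 and sip2 strains in 2602 genes by the interaction term in limma, and 10 of these genes were named by the rule on size. Of the positive interactions, 4 belong to iron genes: SIT1, a siderophore transporter, at 5.50 ± 1.20 (adjusted p = 0.00123), TIS11, which degrades messages when iron is low, at 4.32 (adjusted p = 0.00708), FIT2, a wall protein that holds siderophores, at 4.27 (adjusted p = 0.00339), and ENB1, the enterobactin transporter, at 3.73 (adjusted p = 0.000151). In FIT2, the arrays read 14.13, 14.02 and 13.92 in the sip2 gal83 strain, 13.84, 11.01 and 10.32 in the gal83 strain, 10.89, 11.85 and 10.38 in the sip2 strain and 11.62, 13.85 and 13.54 in the reference strain. Replicate 1 of the gal83 strain and replicate 1 of the reference strain thus stood apart from the rest of their strains. The interactions of these 4 iron genes were called in the fit without the first of these arrays and in the fit without the second. What set these arrays apart was not tested. The fifth positive interaction was that of YSR3, at 3.99 (adjusted p = 6.35e-07).

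The negative interactions were those of GAC1, at -3.87 (adjusted p = 0.000862), the helicase gene DHH1, at -2.62 (adjusted p = 0.00147), AGP2, at -2.35 (adjusted p = 7.51e-05), the forkhead factor gene HCM1, at -2.19 (adjusted p = 0.00106), and SUS1, of the SAGA complex, at -2.17 (adjusted p = 2.67e-06). Without replicate 1 of the sip2 gal83 strain these were -2.75 for GAC1, -1.80 for DHH1, -1.87 for AGP2, -1.57 for HCM1 and -2.34 for SUS1. All 10 were called under every alternative run.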

How the results depend on the processing

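Fits to the compared strains alone gave 528 genes against the reference, 223 against the gal83 strain, 707 against the sip2 strain and 232 against the triple strain, in place of 2031, 1637, 2026 and 789. Adding to this the omission of replicate 1 of the sip2 gal83 strain, an alternative chosen after seeing the data, gave 1162 against the reference and 824 against the gal83 strain. Array weights, which set that replicate to 0.07, gave 2026 against the triple strain. Without 3 doubted arrays 1535 genes differed from the reference, 1615 from the gal83, 2009 from the sip2 and 786 from the triple strain. These were replicate 1 of the sip2 gal83 strain, replicate 3 of sip1 sip2 and replicate 2 of sip1 gal83. SIP2 read higher in that sip1 sip2 array than in the others of its strain. The array enters these comparisons only through the shared spread. Leaving out 1 array at a time gave 1509 to 2286 genes against the reference, 1204 to 1774 against the gal83 strain, 1563 to 2085 against the sip2 strain, 492 to 1107 against the triple strain and 2410 to 2907 for the interaction. The replicate block changed the counts to 2050, 1658, 2040 and 799 for the 4 comparisons and 2616 for the interaction, each within 1.5 times.

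Of 168 genes named and called against the reference, 73 were called under every alternative and 117 under every one but the compared strains alone. The other comparisons gave 17 and 68 of 92 for the gal83 strain, 61 and 101 of 131 for the sip2 strain, 22 and 38 of 53 for the triple strain and 10 of 10 for the interaction. Of 2901 alternative values against the reference 9 turned sign, each at an adjusted p over 0.5 after turning: CIT2 with array weights (-0.01), MDH3 in the fits without replicate 1 of the sip2 gal83 strain (-0.01 in each of 3, with -0.01 to 0.14 over the fits that each leave out 1 array), ALD5 after median centring (0.02), without replicate 3 of the sip2 gal83 strain (0.01) and without replicate 1 of the reference (0.05, with -0.21 to 0.05 over the fits that each leave out 1 array), ADH2 after median centring (0.0024) and GAL1 after quantile normalization (0.09). Of these genes GAL1 alone was called in the deposited values (-0.67). The cause was not tested. With values raised to a floor of 9.746, 36 of the genes named against the reference lay below it in every array and gave no value.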
